A study of Mus musculus with 2 samples.

Results

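The 34 genes described here are general neuronal genes: tubulin, neurofilament and microtubule regulators, synaptic and growth cone proteins, receptor and channel subunits, RNA-binding proteins, enzymes and nuclear factors that neurons of many kinds share. They were chosen by name, with their ratios between Tbx2-GOF and control ureters already known, so those ratios are given below as a description and no test of them supports anything. All 34 were measured, among 21098 genes tested; 33 were found under their own symbol and Map2 under the older name Mtap2. RNA came from ureters of male NMRI mouse embryos at E13.5, and 2 two-colour arrays were hybridised, each with 1 Tbx2-GOF and 1 control extract. Tbx2-GOF embryos were Tbx18(cre/+);Hprt(Tbx2/Y): Tbx2 had been placed in the Hprt gene on the X chromosome, and cre sat in 1 Tbx18 allele. Control embryos were Tbx18(+/+);Hprt(Tbx2/Y), so they carried the Hprt allele too but no cre, and both Tbx18 alleles were normal in the controls only. The cre is thus driven from Tbx18, a gene of the mesenchyme around the ureter, and by genotype the groups differ in that cre-bearing Tbx18 allele. The Tbx2-GOF extract was labelled with AlexaFluor647 (red) on array 1 and with AlexaFluor555 (green) on array 2. Whether the second pair of extracts came from other embryos than the first, and whether embryos were pooled, is not in the labels. A p-value here therefore covers only the spread between 2 arrays, which may be technical. Array, dye orientation and extract cannot be told apart.

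Neurons build long processes on a scaffold of microtubules and neurofilaments, and a shared set of proteins extends the axon tip, packs and releases transmitter and stabilises neuronal messages. These genes mark neurons as a class and do not say which transmitter a neuron uses. Around the lower urinary tract, neuron cell bodies lie largely in autonomic ganglia, which arise from the neural crest, as do the Schwann cells of their nerves.

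All ratios are log2 of Tbx2-GOF over control, given for each array and then as mean ± SD of the 2 arrays (n = 2 throughout). A log2 level is the normalised log2 intensity of 1 extract, and can be read only within a probe, from extract to extract. Across the 34 genes the median ratio was 0.27 on array 1 and 1.44 on array 2, and 0.88 for the mean of both, while over all genes tested the medians were 0.00 on each. In 33 of the 34 the ratio was above 0 on both arrays, which held for 26.1% of all genes tested. In 4 (Nefm, Elavl4, Syt4 and Dpp10) it was at least 1.5-fold on both, against 0.825% of all genes. In limma's fit over all genes, 2 of the 34 (Dpp10 and Syt4) passed an adjusted p of 0.05 as higher in Tbx2-GOF, against 0.36% of all genes (76 genes), and none as lower, against 0.284% (60 genes). At an unadjusted p under 0.05 there were 28 of the 34, and 9.34% of all genes. Because this contrast chose the genes, nothing is read from these shares. With median centring, with the scanner software's processed signals and with the deposited series table, limma called 0 genes over all 21098, at 1219, 2065 and 2060 genes with an unadjusted p under 0.05, so each adjusted p printed below misses the threshold under those 3 settings.

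The size of the ratio was not the same on the arrays. A ratio of 2-fold or more was measured for 2 of the 34 genes on array 1, against 0.384% of all genes tested, and for 24 on array 2, against 1.17%. Of the 34 genes, 31 had the larger ratio on array 2, against 51.0% of all genes. Over the 34 genes the ratios of the arrays had a Pearson r of 0.31 and a Spearman rho of 0.46, a description over genes that share the same 4 extracts.

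**Figure D1:**
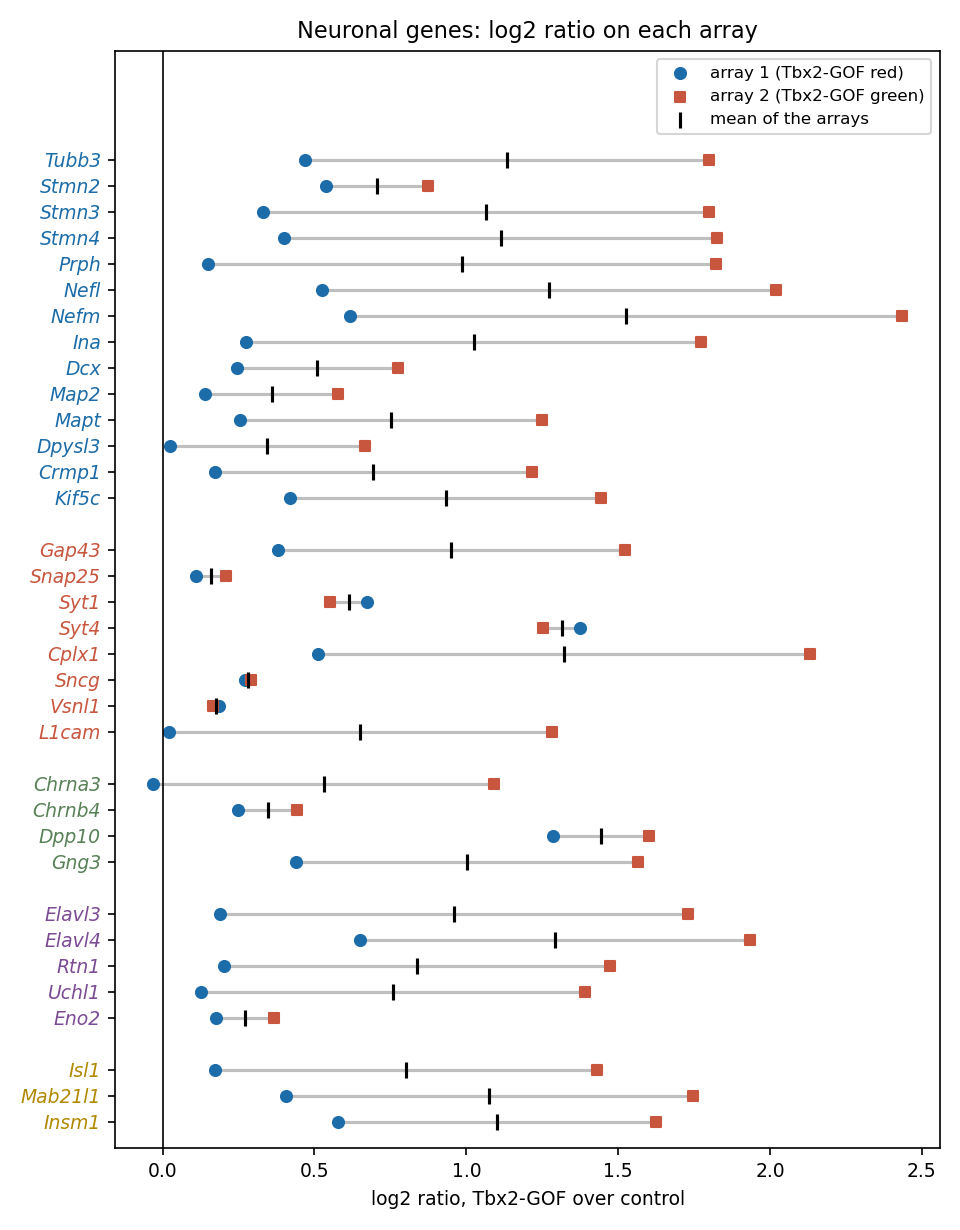
Log2 ratio of Tbx2-GOF over control (horizontal axis) for each of the 34 neuronal genes on array 1 (blue circles) and array 2 (red squares), with black ticks for the mean. Gene names are coloured by role, from cytoskeleton at the top to nuclear factors at the bottom. Of the 34 genes, 31 lie farther right on array 2; Syt1, Syt4 and Vsnl1 do not, and Chrna3 lies at -0.03 on array 1.

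The letters just upstream of these genes are shown for 4 of them, each holding a searched motif, as a description only. A link between these letters and the ratios was not tested. RefSeq promoter windows of the GRCm38.p6 assembly were matched for 23 of the 34 genes, some with several start sites, and the 250 bases before each start were searched on both strands. The E-box CAGCTG, a 6-letter site of the kind that bHLH factors bind, stood in 7 of the 23 genes (30.4%), namely Chrnb4, Cplx1, Elavl3, Elavl4, Ina, Isl1 and Syt1, and in 14.7% of 27025 genes. RE1, the site of REST, which silences neuronal genes outside neurons, was searched by its left part and its right part, TCAGCACC and GGACAGCG. The first stood in 1 gene (Tubb3), against 1.49% of all genes, and the second in 1 (Crmp1), against 1.17%. The T-box core GGTGTGA, which T-box factors including TBX2 recognise, stood in 0 of the 23, against 3.84% of all genes. No match of one motif overlapped a match of another in these genes. A match is a run of letters only, and no match says only that these letters are not in this window. The windows below are printed 5′ to 3′ in the direction of the gene and end at the base before the start site; capitals mark the E-box in Elavl3 (chr9:22052024-22052273, minus strand), Cplx1 (chr5:108550028-108550277, minus strand) and Ina (chr19:47014431-47014680, plus strand), and the left part of RE1, on the opposite strand, in Tubb3 (chr8:123411303-123411552, plus strand).
Elavl3: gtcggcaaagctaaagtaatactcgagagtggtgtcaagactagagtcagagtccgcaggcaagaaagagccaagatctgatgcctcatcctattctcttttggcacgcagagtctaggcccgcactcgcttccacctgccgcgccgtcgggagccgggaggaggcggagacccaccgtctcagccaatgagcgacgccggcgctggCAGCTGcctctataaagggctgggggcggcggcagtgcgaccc
Cplx1: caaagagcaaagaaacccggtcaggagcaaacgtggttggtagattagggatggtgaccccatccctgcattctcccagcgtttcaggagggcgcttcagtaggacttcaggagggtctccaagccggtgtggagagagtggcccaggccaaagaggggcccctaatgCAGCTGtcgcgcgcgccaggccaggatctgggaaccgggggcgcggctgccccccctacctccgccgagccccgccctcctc
Ina: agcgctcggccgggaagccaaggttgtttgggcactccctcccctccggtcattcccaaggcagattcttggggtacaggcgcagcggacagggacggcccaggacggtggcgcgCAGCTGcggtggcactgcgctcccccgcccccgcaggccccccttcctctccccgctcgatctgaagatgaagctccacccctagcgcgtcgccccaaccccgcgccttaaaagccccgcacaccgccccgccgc
Tubb3: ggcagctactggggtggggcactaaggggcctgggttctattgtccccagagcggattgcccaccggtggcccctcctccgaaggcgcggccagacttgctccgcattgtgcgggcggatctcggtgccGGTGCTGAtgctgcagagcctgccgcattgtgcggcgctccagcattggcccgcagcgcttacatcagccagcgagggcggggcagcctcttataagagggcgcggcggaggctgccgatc

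The 14 cytoskeletal genes were higher in Tbx2-GOF on both arrays, with medians of 0.30 on array 1 and 1.61 on array 2, and none of the 14 passed the adjusted threshold. Tubb3, the tubulin subunit used as the standard marker of young neurons and 1 of the 4 genes whose window is printed above, had log2 levels of 12.41 and 12.47 in the Tbx2-GOF extracts of arrays 1 and 2 and of 11.95 and 10.67 in the controls. The control of array 2 was the low extract, and both Tbx2-GOF extracts lay above both controls. The ratio of Tubb3 was 0.47 on array 1 and 1.80 on array 2, a mean of 1.13 ± 0.94. Among the intermediate filament genes, Nefm, the medium neurofilament subunit, had levels of 13.48 and 13.66 in Tbx2-GOF and of 12.86 and 11.23 in the controls. Its ratios of 0.62 and 2.44 (mean 1.53 ± 1.28) gave the largest mean of the 34 genes. Nefl, the light subunit, was at 0.53 and 2.02 (1.27 ± 1.06), with control levels of 13.81 and 12.53. Ina, which encodes alpha-internexin, was at 0.27 and 1.77, and Prph, which encodes the peripheral neurons' filament protein peripherin, at 0.15 and 1.82. In all 4 filament genes the control of array 2 was the lowest extract, more than 1 log2 unit below the control of array 1.

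The stathmins bind tubulin and destabilise microtubules. Stmn2 had levels of 14.20 and 14.27 in Tbx2-GOF and of 13.66 and 13.40 in the controls, and ratios of 0.54 and 0.87 (0.71 ± 0.24). Its family members spread more, Stmn3 at 0.33 and 1.80 and Stmn4 at 0.40 and 1.83. Of these 3 stathmins, Stmn2 alone had ratios within 0.5 of each other on the 2 arrays. Dcx, which encodes the microtubule binder doublecortin of migrating young neurons, was at 0.24 and 0.77. The ratios of Map2, of the dendritic microtubule-associated protein, were 0.14 and 0.58, and those of Mapt, which encodes tau, were 0.26 and 1.25. Dpysl3 and Crmp1, collapsin response mediator proteins of the growing axon, were at 0.02 and 0.67 and at 0.17 and 1.21. Kif5c, a kinesin motor that carries cargo along axons, was at 0.42 and 1.44. On array 1 Dpysl3 had levels of 14.73 in Tbx2-GOF and 14.71 in the control, but a second Dpysl3 probe gave ratios of 0.35 and 0.53, so its ratio on array 1 depends on the probe.

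The 8 synapse, growth cone and adhesion genes were the most mixed group, with medians of 0.32 and 0.90 on arrays 1 and 2. Gap43, the growth cone protein of extending axons, had levels of 15.43 and 15.63 in Tbx2-GOF and of 15.05 and 14.10 in the controls, hence ratios of 0.38 and 1.52 (0.95 ± 0.81). Cplx1, a complexin that clamps and promotes vesicle fusion, went from 10.24 and 8.91 in the controls to 10.75 and 11.04 in Tbx2-GOF, with ratios of 0.51 and 2.13 (1.32 ± 1.14). L1cam, an adhesion molecule of axon bundles, was at 0.02 and 1.28. In these 3 genes the control of array 2 was the lowest extract, by 0.94 to 1.34 below the other control.

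The other 5 did not show that step between the controls. Syt4, a synaptotagmin of dense-core and other vesicles, had levels of 10.46 and 10.49 in Tbx2-GOF and of 9.09 and 9.23 in the controls. Both Tbx2-GOF extracts lay more than 1 log2 unit above both controls. Its ratios were 1.38 and 1.25, a mean of 1.31 ± 0.09 or 2.49-fold, and it was 1 of the 2 genes past the adjusted threshold. Syt1, the calcium sensor of fast transmitter release, stood at 0.67 and 0.55 (0.61 ± 0.09), with controls at 11.98 and 12.15. Snap25, a membrane SNARE of the fusion machinery, was at 0.11 and 0.21, Sncg, gamma-synuclein of peripheral neurons, at 0.27 and 0.29, and Vsnl1, a neuronal calcium sensor, at 0.19 and 0.17. In Snap25, Sncg and Vsnl1 the controls differed from each other by at most 0.04, and all 3 genes were under 1.3-fold on both arrays.

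**Figure D2:**
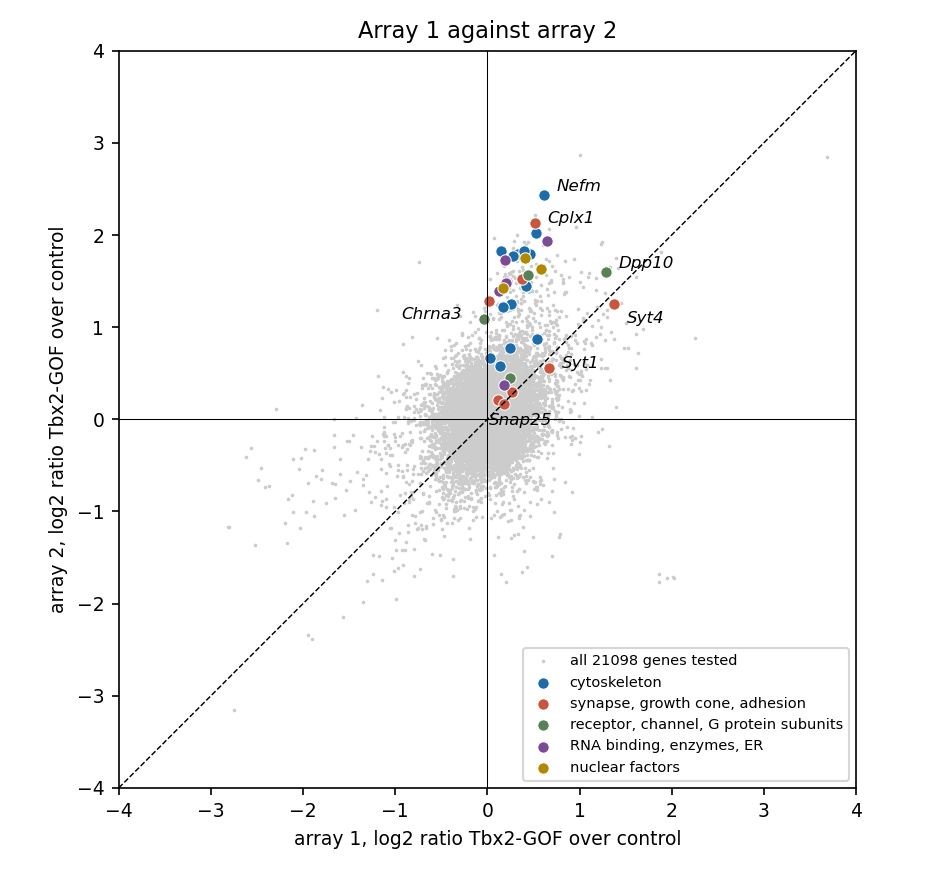
Log2 ratio of Tbx2-GOF over control on array 1 (horizontal) against array 2 (vertical), for all 21098 genes tested (grey points) and the 34 neuronal genes coloured by role; the dashed line marks equal ratios. Most of the 34 lie above the line, while Dpp10 (1.29 and 1.60) and Syt4 (1.38 and 1.25) lie close to it and far from 0.

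Among the 4 receptor, channel and G protein subunits, Dpp10 stood apart. It encodes an auxiliary subunit of Kv4 potassium channels, and its probe lies on chromosome 1 (mm9, 125230381 to 125230440, minus strand). Its levels were 9.68 and 9.75 in Tbx2-GOF and 8.40 and 8.15 in the controls, so the groups lay more than 1 log2 unit apart. The ratios were 1.29 and 1.60 (1.44 ± 0.22, 2.72-fold), and a second Dpp10 probe gave 1.03 and 1.29. Gng3, a G protein gamma subunit of neurons, was at 0.44 and 1.57. Chrna3 and Chrnb4 encode the alpha and beta subunits of the ganglionic nicotinic receptor, the receptor through which autonomic ganglion cells are driven, and they lie side by side on chromosome 9. Chrna3 had levels of 7.46 and 7.72 in Tbx2-GOF and of 7.49 and 6.63 in the controls. It was the 1 gene of the 34 whose groups overlapped, its ratios were -0.03 and 1.09, and its control signal was not well above background on array 2. Chrnb4 was at 0.25 and 0.44, with levels between 7.40 and 7.95 in all 4 extracts. Across all 34 genes, 33 had both Tbx2-GOF levels above both control levels, against 18.2% of all genes tested.

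The RNA-binding, enzyme and endoplasmic reticulum genes had medians of 0.19 on array 1 and 1.47 on array 2. Elavl4, an RNA-binding protein that stabilises neuronal messages, had levels of 12.32 and 12.35 in Tbx2-GOF and of 11.67 and 10.42 in the controls, and ratios of 0.65 and 1.93 (1.29 ± 0.91). A second probe of Elavl4 gave 0.70 and 1.86. Elavl3, its relative with the E-box window above, was at 0.19 and 1.73, and its Tbx2-GOF levels (11.07 and 11.04) were nearly equal while its controls (10.88 and 9.31) were not. Rtn1, a reticulon of the endoplasmic reticulum, was at 0.20 and 1.47. Uchl1, a ubiquitin hydrolase abundant in neurons, was at 0.13 and 1.39. The start and end coordinates of its probe span 1092 bases of chromosome 5 on mm9. Eno2, the neuronal enolase, differed little on either array, at 0.18 and 0.37.

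Of the 3 nuclear genes, Isl1 encodes the LIM homeodomain factor of autonomic, sensory and motor neurons. Its 10 spots gave 0.17 (SD 0.084 over spots) on array 1 and 1.43 (SD 0.074) on array 2, so the spread between spots was far below the gap between arrays. Nefm, the other gene with repeated spots, gave 0.62 (SD 0.042, 10 spots) and 2.44 (SD 0.054, 9 spots). The levels of Isl1 were 12.87 and 12.92 in Tbx2-GOF and 12.69 and 11.49 in the controls. Insm1, a zinc finger factor of developing sympathetic and endocrine cells, was at 0.58 and 1.63, and Mab21l1 at 0.41 and 1.75. All 3 nuclear genes were at 0.80 or more in the mean of the arrays.

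In the normalised levels, the gap between the arrays lay mainly between the control extracts. The control of array 1 stood above the control of array 2 by a median of 0.97 over the 34 genes, against 0.01 over all genes tested. The Tbx2-GOF extract of array 2 stood above that of array 1 by a median of 0.08, against -0.01 over all genes. Both differences are green minus red, so a dye bias of a probe enters each alike. An array effect enters them with opposite signs. Dye and array effects together cannot be told apart from a difference between the control extracts, and this was not tested. The control difference was over 0.5 in 23 of the 34 genes, and in 6.34% of all genes, whereas the Tbx2-GOF difference was over 0.5 in 0 of the 34, and in 1.34% of all genes, so that a count of 0 is near the share over all genes. Summed over the 34 genes, the signal was 282578 and 311271 in the Tbx2-GOF extracts of arrays 1 and 2, and 224403 and 130608 in the controls. Set against each other within 1 dye, the median difference of Tbx2-GOF over control was 1.30 in red (array 1 over array 2) and 0.43 in green. In bulk tissue, fewer neurons and less RNA per neuron cannot be told apart.

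**Figure D3:**
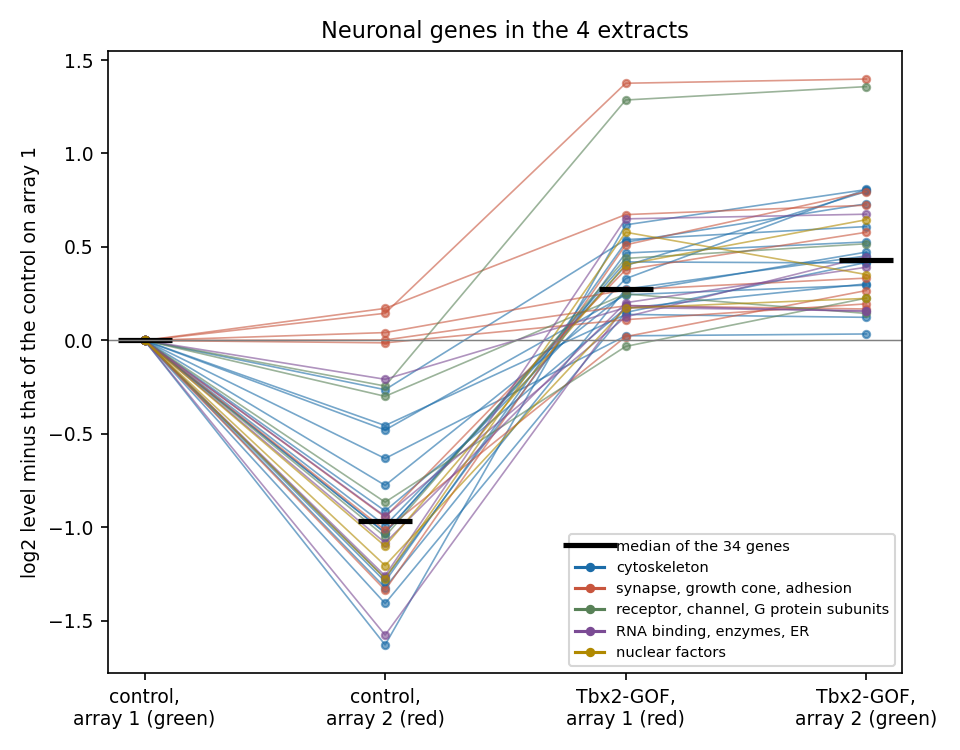
Log2 level of each of the 34 genes in the 4 extracts, minus its level in the control of array 1 (vertical axis), with thin lines joining the values of 1 gene and black bars for the median. The median lies 0.97 below 0 in the control of array 2 and lies above 0 in both Tbx2-GOF extracts, which differ from each other by far less than the controls do.

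A group of 10 genes had ratios within 0.5 of each other on the arrays, a limit set after the values were seen: Stmn2, Map2, Snap25, Syt1, Syt4, Sncg, Vsnl1, Chrnb4, Dpp10 and Eno2. The 10 hold both the genes past the threshold and the 3 with the smallest mean ratios, Snap25, Vsnl1 and Eno2. Probes of the same gene went together in most cases. Of 44 probes, 42 were above background, and in the 7 genes with several such probes the sign was the same in 6 on array 1 and in 7 on array 2; the exception was a Map2 probe at -0.03. The 2 probes of Stmn4 share 44 bases and are not separate readings.

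Markers of neuron kinds were set beside the 34 genes from lists that were drawn up with earlier results known. In the further list of 58 general neuronal genes, 52 were measured, with medians of 0.15 and 0.68; 37 of the 52 were above 0 on both arrays, and 0 passed the adjusted threshold as higher. The largest means were those of Celf3, an RNA-binding protein, at 0.07 and 1.97, Srrm4, a splicing regulator of neurons, at 0.35 and 1.55, and Nefh, the heavy neurofilament subunit, at 0.31 and 1.48. Ebf3, a helix-loop-helix factor, fell, at -0.86 and -0.89 (adjusted p = 0.043). The 34 genes had larger medians than this list, a contrast that the way they were chosen can set.

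Markers of sympathetic neurons leaned towards array 2 as the 34 genes did. All 13 were measured, with medians of 0.48 and 1.69 and with 12 of the 13 above 0 on both arrays. Th, which makes the first committed step of catecholamine synthesis, rose, with levels of 13.90 and 13.85 in Tbx2-GOF and of 12.97 and 12.11 in the controls, a ratio of 1.34 ± 0.57 (adjusted p = 0.043). Dbh, which makes noradrenaline, was at 0.48 and 1.66, and the vesicular monoamine transporters Slc18a2 and Slc18a1 at 0.85 and 1.72 and at 0.66 and 1.72. The summed signal of the sympathetic list was 146628 and 156738 in Tbx2-GOF, and 123887 and 69549 in the controls, the same order of extracts as in the 34 genes. Scg2, a granin of dense-core vesicles placed in the chromaffin list, rose by 1.57 ± 0.47 (adjusted p = 0.0266), and in the same list the granins Chgb and Chga were at 0.72 and 1.39 and at 0.45 and 1.38, while Pnmt, which makes adrenaline, was at 0.23 and 0.43. The opioid peptide gene Penk was at -0.26 and -0.13 and Dlk1 at -0.06 and 0.05. The 6 genes of that list had medians of 0.34 and 0.90, with 4 of the 6 above 0 on both arrays.

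Of the cholinergic markers 6 of 7 were measured, with medians of 0.22 and 1.06 and a larger ratio on array 2 in 4, and of the enteric markers 6 of 6, with medians of 0.30 and 0.88 and a larger ratio on array 2 in 6. None of these passed the threshold. Slc18a3, the vesicular acetylcholine transporter, was at 0.40 and 1.93, the peptide gene Vip at 0.23 and 1.59 and Chat, which makes acetylcholine, at 0.18 and 0.97. The choline transporter Slc5a7 was at 0.03 and 1.14. The homeobox genes Hmx2 and Hmx3 were at 0.20 and 0.17 and at 0.29 and 0.27, slightly larger on array 1. In the enteric list, Ret, the receptor of GDNF, was at 0.61 and 1.89 and the homeobox gene Tlx2 at 0.40 and 1.85, with the GDNF co-receptor Gfra1 at 0.31 and 1.26 and the endothelin receptor Ednrb at 0.28 and 0.50. Of the sensory markers 8 of 13 were measured, with medians of -0.08 and -0.06 and a larger ratio on array 2 in 6 of the 8, and Pou4f1, the sensory homeodomain factor, was at -0.06 and -0.23. The peptide gene Calca was at 0.51 and 0.90, and the neurotrophin receptors Ntrk3 and Ntrk2 at 0.32 and 0.55 and at -0.39 and -0.30. The sensory genes Prrxl1 and Scn10a were not well above background in either group. Motor and central nervous system markers were sparse, with 4 of 6 and 5 of 10 measured. Of the measured motor genes, Chat is also in the cholinergic list, and Isl2, at -0.60 and 0.07, is also in the sensory list. The motor list is thus not a separate reading from those lists. Low signal limits the ratios of some genes in the motor, central and sensory lists. Tac1, a sensory marker, had levels of 6.80 to 6.90, and Slc32a1, of the central list, of 6.91 to 7.13. The lowest level well above background was 6.45 to 6.59, depending on the extract. Lhx4, of the motor list, was not well above background in the controls. Chodl, a gene of motor neurons, was at -1.06 and -0.49, and Lhx1, a homeobox gene also of the kidney, at 1.07 and 0.55. Mnx1, Gad1, Slc17a7, Olig2 and Pax6 were not well above background in any extract, and Slc17a6 was so in 1 control only. In the neural tube progenitor list the homeobox gene Dbx1 fell, at -1.10 and -0.86 (adjusted p = 0.0378), with the Tbx2-GOF signal above background on 1 of 2 arrays. Its groups overlapped, as the Tbx2-GOF level on array 2 (7.91) lay above the control of array 1 (7.64). Sox2, in the same list, was at 0.52 and 1.30. Among the neurogenic factors, Neurog1 and Neurod1 were not well above background.

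**Figure D4:**
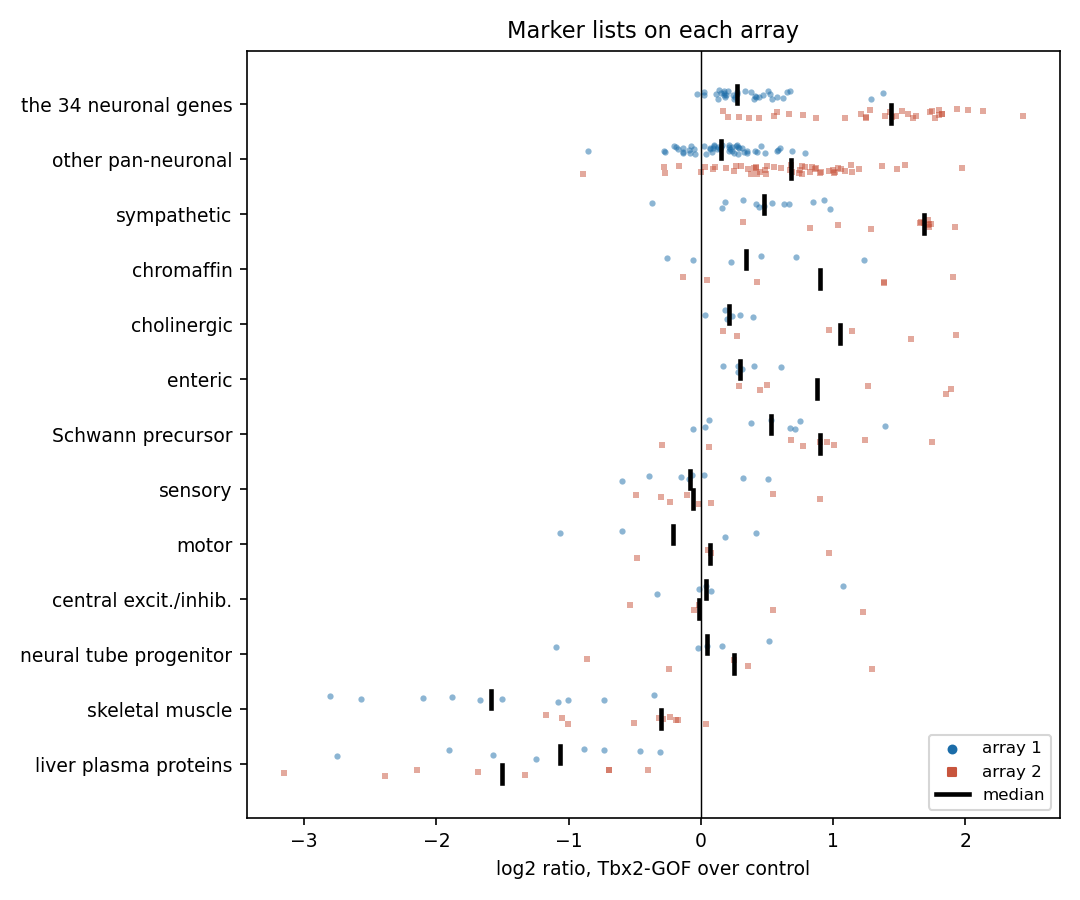
Log2 ratio of Tbx2-GOF over control (horizontal axis) of each measured gene in 12 marker lists and in the 34 neuronal genes, on array 1 (blue circles) and array 2 (red squares), with black bars for the median. Sympathetic markers have medians of 0.48 and 1.69, near the 34 genes at 0.27 and 1.44. Medians are -0.08 and -0.06 in the sensory list, -0.21 and 0.07 in the motor list and 0.04 and -0.02 in the central excitatory and inhibitory list. Single genes of these lists range from -1.06 (Chodl, array 1) to 1.23 (Tlx3, array 2), and some have low signal. Chat is drawn in both the cholinergic and the motor list, and Isl2 in both the sensory and the motor list.

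Markers of other cells that moved with the neuronal genes are given as values, and their part in the result was not tested. Schwann cell precursor markers, 9 of 10 measured, had medians of 0.53 and 0.90. Fabp7, which carries fatty acids in glial precursors, rose by 1.57 ± 0.25 (adjusted p = 0.019), and Sox10, the glial and neural crest factor, was at 0.53 and 1.24. Cdh19 and Foxd3, 2 other genes of the lineage, were at 0.71 and 1.01 and at 0.67 and 0.96. Their summed signal was 38366 and 38246 in Tbx2-GOF and 24558 and 17677 in the controls. Skeletal muscle markers went the other way and differed between the Tbx2-GOF extracts instead, with medians of -1.58 and -0.30, a control difference of -0.09 and a Tbx2-GOF difference of 1.07. Acta1 and Myh8, both genes of contracting muscle, fell by 1.55 and 1.47 (adjusted p = 0.047 and 0.0378). Plasma protein genes of the foetal liver had medians of -1.06 and -1.51, with 5 of 8 past the threshold as lower, from Afp at -2.95 ± 0.29 (adjusted p = 0.0024) through Alb, Ahsg and Serpina1a to Ttr at -1.11 ± 0.32 (adjusted p = 0.0378), the Tbx2-GOF signal of Ahsg and Ttr being well above background on 1 array only. Akr1b7 and Mc2r, expressed in adrenal cortex, rose by 3.27 ± 0.59 and 1.27 ± 0.33 (adjusted p = 0.0051 and 0.0277), the control signal of Mc2r being well above background on 1 array only, and the steroid enzyme genes Cyp11a1 and Cyp21a1 were at -0.03 and -0.22 and at -0.22 and -0.08. The tissue's own markers were detected: 11 of 11 ureteric epithelium genes and 9 of 10 ureteric mesenchyme genes were measured, with medians of 0.09 and -0.02 and of -0.39 and -0.01. The control of array 1 stood above that of array 2 by a median of 0.39 in the mesenchyme list, as in the further list of general neuronal genes (0.39). In the epithelium list that difference was -0.26. In the epithelium list Upk3a, a uroplakin of the urothelium, fell by 0.86 (adjusted p = 0.0449), although its Tbx2-GOF level on array 2 (8.90) lay above the control of array 1 (8.22). Upk2, another uroplakin, was at 1.05 and 0.62 and did not pass the threshold.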

How the data were processed

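RNA of 2 Tbx2-GOF and 2 control extracts was read on 2 Agilent two-colour arrays with dyes swapped, and the scans were read by Agilent Feature Extraction (version 10.7.3.1 in the submitters' processing notes). Per the file headers, spot and background values are intensity without normalization, and the software's ratio of the red to the green channel is on the log10 scale. The deposited series table holds a signed fold ratio that was treated as a score; its scale and direction were worked out from the values.

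In limma 3.58.1 (R 4.3.3), intensities were corrected by normexp with an offset of 50 and normalized by loess (span 0.3) with control and flagged spots at weight 0. Spots of a probe were averaged, the sign of each log2 ratio was set so that above 0 is higher in Tbx2-GOF, and probes well above background on both arrays in either group were kept (26576 of 39429). The brightest kept probe stood for its gene. Each of the 21098 genes was tested two-sided by lmFit and eBayes (residual degrees of freedom 1, prior 6.36), and Benjamini-Hochberg adjustment at 0.05; the fit was tested on simulated data. Channel levels were normalized by loess and Aquantile. That there are only 2 arrays limits the precision; no probe was saturated.

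Symbols were updated through RefSeq accessions (67% of probes). All 34 genes are named; from the other lists, every gene past the threshold, in the neural lists up to 4 with the largest mean ratio, and the markers that define a neuron kind. The genes and lists were chosen with earlier results of these data known. Alternatives changed the background correction, normalization, scaling, filter, probe rule, moderation, source table and the arrays used. Some genes that this rule names are not reported here. Genes named beyond this rule were chosen after their values were seen. Without a genome, the probes' place in exons or UTRs was not analysed here.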

Additional observations from a re-analysis of the deposited data

How the results depend on the processing

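Genes past limma's adjusted threshold numbered 136, and 109 to 171 with no offset, no background correction, a strict filter or trended, robust moderation; they numbered 313 with scaling between arrays, 276 with no filter on dim probes and 211 with the mean of a gene's probes. They numbered 0 under 3 settings (processed signals, median centring, series table), where 2065, 1219 and 2060 genes had an unadjusted p under 0.05, and 22, 17 and 25 of the 34. Of the 34 genes 2 were past the threshold, and 0 with those 3 settings; with scaling between arrays there were 6, adding Elavl4, Insm1, Nefm and Stmn2, and with trended moderation 3, adding Stmn2. The median of the 34 lay between 0.84 and 0.95 in the alternatives that kept both arrays, and the genes above 0 on both numbered 32 to 34; none of 339 values for single genes changed sign. Leaving out an array left a value with no test: the median was 0.27 or 1.44, genes above 0 numbered 33 or 34, and genes at 1.5-fold or more, 4 on both arrays, numbered 5 on array 1 alone and 27 on array 2 alone. Chrna3 (0.53) was at -0.032 without replicate 2, a change of sign, and at 1.09 without replicate 1; it was at 0.83 with no offset, 0.85 with the series table and 1.48 with processed signals, and no other of the 34 moved by over 1.5 times with both arrays kept. Within 1 dye the median was 1.30 in red and 0.43 in green. With quantile normalization of all 4 channels the control difference was 0.90 and the Tbx2-GOF difference 0.08. Matching by the files' gene names only, an alternative chosen after seeing the data that leaves out Map2, gave a median of 0.93 and 32 genes above 0 on both. The ratio within an array already pairs its Tbx2-GOF and control extracts, so no further replicate block was fitted. Low signal limits Chrna3, whose control was above background on 1 array.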
